A study of Mus musculus with 30 samples.

Results

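Cytosolic ribosomal protein genes encode the protein parts of the large and small ribosomal subunits. A symbol search of the deposited values found 110 rows with a name of the form Rpl or Rps followed by a digit, Rpsa or Rplp0 to Rplp2. Of these, 15 pseudogenes by symbol, 9 Rps6 kinase genes, 2 pseudogenes by annotation (Rpl37rt and Rps4l) and 1 gene with a mean below 10 (Rpl3l) were left out. The remaining 83 genes, 49 of the large and 34 of the small subunit, are described here, out of 18240 rows. All 83 passed the filter on low values, a mean normalized count of at least 10, which was also part of the choice. The symbol rule took in Rps19bp1, a binding protein of Rps19 and no part of the ribosome, the paralogs Rpl7l1, Rpl22l1, Rps27l and Rpl36al, and the retrocopy Rps27rt. It did not take in Fau and Rack1, which also encode ribosome components.

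The tissue was prefrontal cortex, taken from C57BL/6J mice on postnatal day 40, and polyadenylated RNA was sequenced. Libraries labelled heterozygous (HT) for Adnp, which encodes a homeodomain chromatin protein, came from mice given vehicle (4 female, 3 male), fluoxetine, a serotonin reuptake inhibitor (4 female, 4 male), or lithium, a mood stabilizer (3 female, 4 male). Libraries labelled wild type (WT) came from mice given vehicle (4 female, 4 male). The sources used here do not give the part of Adnp that the allele lacks, and no WT group received a drug. Replicates are numbered, with no word on whether each number is its own animal; the p-values rest on the spread among libraries, which may be partly technical.

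The 30 libraries held 23771758 to 34307061 reads in the deposited rows, as recovered from the normalized values. Adnp had a normalized count of 1703 to 2228 (median 1857) in WT vehicle libraries and 2076 to 2491 (median 2250) in libraries labelled HT vehicle, a log2 difference of 0.26 (SE 0.052, limma adjusted p = 0.00996). The targeted transcript was thus higher, not lower, in libraries labelled HT, and every genotype direction below rests on those labels. Markers of neighbouring tissue varied: the 12 striatal genes summed to 6554 to 29848 in WT vehicle, 7089 to 31401 in HT vehicle, 6628 to 49494 in HT fluoxetine and 6745 to 19895 in HT lithium libraries, and the 12 olfactory bulb genes to 2387 to 11632, 3213 to 20772, 2350 to 11766 and 3387 to 22586. None of these markers was at 0 in all libraries. Cortical excitatory markers were high throughout (12 genes summing to 125851 to 192925).

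A ribosome holds one copy of nearly every ribosomal protein, so cells make these proteins in matched amounts. In mammals the transcripts are short, abundant and among the most steadily expressed of all. Many begin with a cytosine and a run of pyrimidines, the 5′ terminal oligopyrimidine (TOP) element, through which mTOR signalling and the protein Larp1 control their translation; such control acts on translation more than on the RNA level measured here. In neurons, ribosomal protein transcripts are also carried into axons and dendrites.

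The TOP element can be read at annotated starts. RefSeq start windows (build GRCm38.p6) were found for 63 of the 83 genes. A start with C followed by at least 4 pyrimidines stood at an annotated start of 14 of the 63 genes (22.2%, 95% Wilson interval 13.7 to 33.9), against 3.01% of 27025 genes in the same table. Allowing a start within 5 bases raised this to 30 of 63 (47.6%) against 21.2%. The 6 windows here are from Rpl15, the member with the smallest spread over libraries, Rps6, the classical S6 kinase substrate, Rpl35, Rps10 and Rps18, which with these hold the longest runs, and Rpl35a, the member with the smallest p by genotype label. Each shows 40 bases before and 20 bases from the annotated start, 5′ to 3′, with the pyrimidine run at the start in capitals.
Rpl15, chr14:18270967-18271026, minus strand: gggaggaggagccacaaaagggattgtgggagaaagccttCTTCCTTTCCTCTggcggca
Rpl35, chr2:39005112-39005171, minus strand: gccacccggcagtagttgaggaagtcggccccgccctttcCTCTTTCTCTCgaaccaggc
Rps10, chr17:27635225-27635284, minus strand: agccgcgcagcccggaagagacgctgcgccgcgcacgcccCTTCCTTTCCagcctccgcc
Rps6, chr4:86857348-86857407, minus strand: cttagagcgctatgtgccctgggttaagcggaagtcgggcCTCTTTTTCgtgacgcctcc
Rps18, chr17:33955646-33955705, minus strand: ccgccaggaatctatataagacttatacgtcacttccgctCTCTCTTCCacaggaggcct
Rpl35a, chr16:33056442-33056501, plus strand: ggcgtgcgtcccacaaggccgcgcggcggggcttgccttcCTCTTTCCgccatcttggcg
Rpl15 had the longest run of all members with a window (13 bases, against 5 in Rps21 and Rplp2, the shortest that counted), and the run in Rpl35a, at 1 of its 3 annotated starts, had 8. These are letters at annotated starts; no read start was measured here.

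Other letters were counted on both strands of the 300-base windows (250 before to 50 after the start). The ETS-type motif CCGGAAG, seen in the windows of Rps10 above, was present for 39.7% of the 63 genes (Wilson interval 28.5 to 52.0), 9.93% of all genes of the promoter table and 17.0% of the 12783 genes that are also in the deposited table. AAGATGG, part of the motif bound by YY1, was present for 15.9% and 7.28%. GGGCGG, a GC-box core, was present for 63.5% of members, 38.2% of all genes and 64.4% of the genes in the deposited table, so its share did not exceed that of the genes measured. TATAAA was present for 11.1%, 15.7% and 9.44%. The CCGGAAG share was 37.8% for large and 42.3% for small subunit genes, with overlapping intervals.

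Levels between genes were compared per kilobase of the longest annotated coding transcript. On that scale the median was 3104 normalized counts per kb for large and 3284 for small subunit genes. Rplp1, a protein of the acidic stalk that recruits elongation factors, was highest at 17146 per kb, followed by Rps29 (11007), Rps15 (8923) and Rpl41 (8586). The order at the top kept Rplp1 at rank 1 with the median transcript length, while Rps29 went from rank 2 to 4, Rps15 from 3 to 6 and Rpl41 from 4 to 7. The lowest were Rps27 (191 per kb), its paralog Rps27l (228), Rpl12, a protein at the base of the stalk (269), and Rpl7l1, a nucleolar paralog of Rpl7 (368). A low value can rest on the transcript chosen: Rps15a ranked 75 with its longest transcript of 5179 bases and 19 with the median length. It can also rest on the split of reads with a similar row, described below. Of the summed count with Rps27, 94.3% lay in Rps27rt, and of that with Rpl12, 90.8% lay in the row Gm10275.

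Paralogs were below most members in total count, Rps27l and Rpl22l1 far below. Rps27l had a mean of 125 ± 12 normalized counts in WT vehicle libraries (SD, n = 8) and 127 ± 8 in HT vehicle libraries (n = 7). Rpl22l1, a paralog of Rpl22, had medians of 514 and 508, against 1887 and 1890 for Rpl22. Rpl36al had 1157 ± 78 and 1205 ± 74, and Rpl7l1 had 964 ± 51 and 972 ± 35. Over all 30 libraries Rpl36al had a mean of 1181 against 1499 for Rpl36a, and Rpl7l1 959 against 3812 for Rpl7. None of the 4 was called by genotype, fluoxetine or lithium (smallest unadjusted p = 0.235, for Rpl36al by genotype).

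Most members varied little. The SD of the log2 level over all 30 libraries had a median of 0.0977. Rpl15 (SD 0.0447, highest library 1.15 times the lowest) and Rpl4 (0.0471), which lines the exit tunnel, were steadiest in the large subunit, and Rps7 (0.0631) and Rps3a1 in the small. Rpl10 (0.171) and Rpl22l1 (0.159) varied most in the large subunit. In the small subunit Rps27 stood apart (0.707, highest library 8.1 times the lowest), followed by Rps27rt (0.199).

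**Figure D1:**
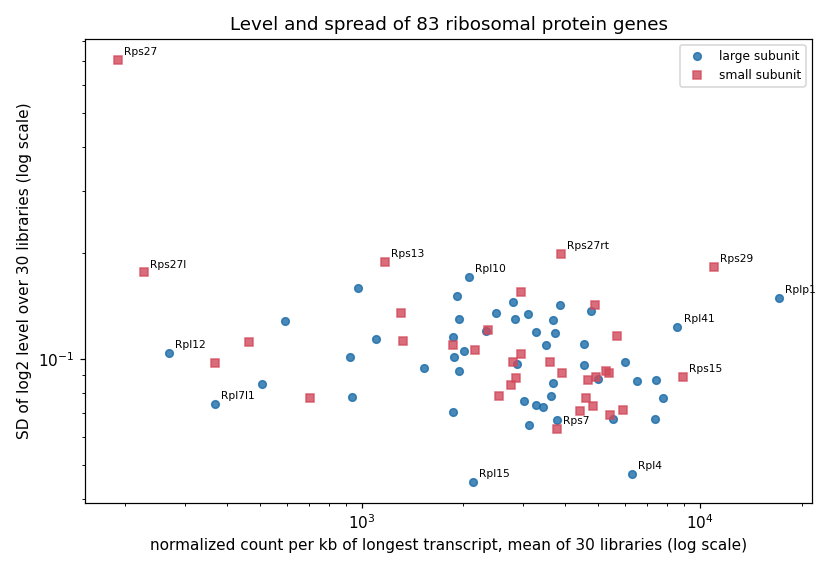
Mean normalized count per kb of the longest transcript (x axis, log scale) against the SD of the log2 level over 30 libraries (y axis, log scale), 1 point per gene, circles for the large and squares for the small subunit. Rps27, whose split of reads with Rps27rt is uncertain, is lowest in level (191 per kb) and highest in spread (0.707). Rpl15 has the smallest spread (0.0447).

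Rps27 and its copy need to be read together. Rps27 encodes a zinc-finger protein of the small subunit at chr3:90212522-90213651, minus strand, and Rps27rt is an intronless copy annotated as protein coding at chr9:114982366-114982739, minus strand (GRCm38). Their 300-base start windows share a run of 38 bases, the longest they have in common. Shown are 30 bases to either side of the annotated starts, with the part of that run that falls in them in capitals.
Rps27, chr3:90213619-90213678, minus strand: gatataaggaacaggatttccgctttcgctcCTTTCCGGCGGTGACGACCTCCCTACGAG
Rps27rt, chr9:114982710-114982769, minus strand: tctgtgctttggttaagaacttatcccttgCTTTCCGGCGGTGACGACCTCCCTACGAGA
The shared run begins at base 1 after the annotated start base of Rps27 and at the annotated start base of Rps27rt. Of the 31-base words in Rps27 transcripts, 49.8% also occur in Rps27rt. The retrocopy had a mean of 1450 normalized counts and Rps27 a mean of 87.3, so that 94.3% of their summed count was given to the copy.

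The counts of Rps27 were 157, 42, 53 and 52 in WT vehicle females and 121, 118, 344 and 119 in WT vehicle males. In HT vehicle libraries they were 68, 50, 64 and 45 in females and 132, 69 and 61 in males. WT vehicle male 3 stood at 344, and the groups overlapped. In that library Rps27rt was at 849, its lowest value, against 1185 to 1702 in the other WT vehicle libraries. The log2 difference for Rps27 was -0.57 by genotype label (SE 0.28, limma adjusted p = 0.775) and became 0.055 when the counts of both rows were summed before the fit (adjusted p = 0.962). The split of reads between these rows is therefore uncertain.

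Such splits were common. For 28 members (20 large, 8 small) the most similar other row of the table shared at least 20% of the member's 31-base words, and 17 of these rows held at least 10% of the summed count of the pair. Rps27rt, itself a member, was counted here only as the row paired with Rps27. The rows other than members made 6.55 to 7.61% of the joint sum of these rows and all members, paired or not, per library (median 7.06%). For 4 pairs the other row was higher than the member: Rps27rt, Gm10275 (mean 3289 against 334 for Rpl12), Gm15500 (4295 against 1211 for Rpl5) and Rpl10-ps3 (2155 against 1770 for Rpl10). Rpl5, which binds the ribosome's smallest RNA and Mdm2, ranged 1.34-fold over libraries alone and 1.17-fold with Gm15500 added. Rpl10, one of the last proteins to join the large subunit, ranged 1.61-fold alone and 1.27-fold with Rpl10-ps3. In total, 39 members shared no 31-base word with another row.

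**Figure D2:**
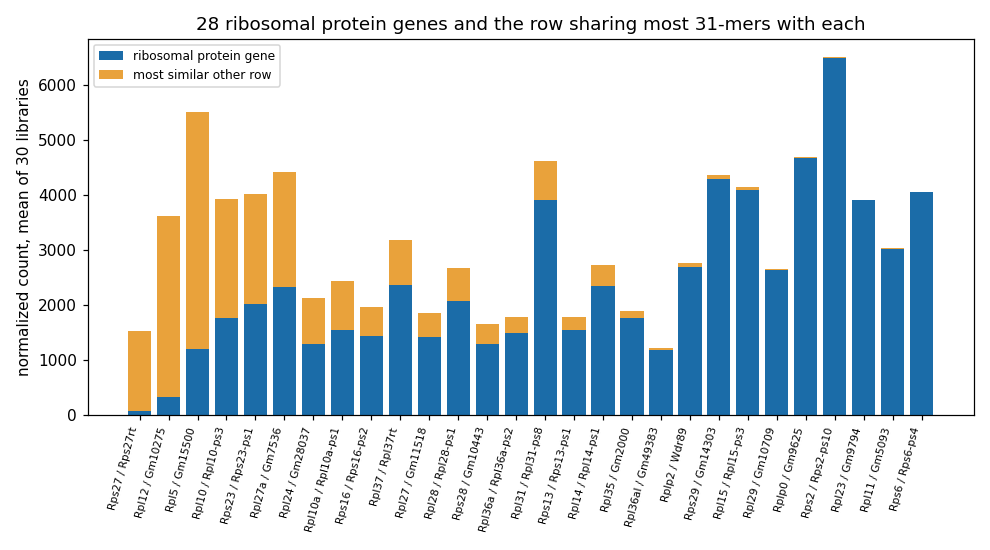
Mean normalized count over 30 libraries (y axis) of 28 ribosomal protein genes (blue) with the most similar other row stacked on top (orange), ordered by the share of the other row. In the 4 pairs of Rps27, Rpl12, Rpl5 and Rpl10 the other row is the larger piece.

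The 2 subunits rose and fell together from library to library. The 49 large subunit genes summed to 145567 to 180773 normalized counts and the 34 small subunit genes to 94036 to 119880, and their ratio stayed between 1.51 and 1.56 (1.53 ± 0.0136, SD, n = 30). By condition the ratio was 1.54 ± 0.0146 in WT vehicle, 1.53 ± 0.0136 in HT vehicle, 1.53 ± 0.0174 in HT fluoxetine and 1.53 ± 0.00996 in HT lithium libraries. After group means were removed, the mean of the 83 log2 levels had an SD of 0.0717, close to the SD of a typical single member (0.0925). For 36 translation initiation factors these were 0.0278 and 0.0674, and for 78 mitochondrial ribosomal protein genes 0.0413 and 0.086. The first principal component held 44.7% of the variance within groups for the members and 27.5% for the mitochondrial set; these are descriptions, over the same libraries.

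The libraries at either end came from several groups. HT fluoxetine female 4 was highest, with a mean log2 deviation of 0.172 and 78 of 83 members above their own mean, followed by HT vehicle male 3 (0.131, 74 members) and HT lithium female 1 (0.0743, 67 members). HT fluoxetine male 3 (-0.137), WT vehicle male 3 (-0.135) and HT lithium male 1 (-0.117) were lowest, with 6, 6 and 11 members above their mean. Short genes outside the set moved the same way: the median deviation of non-member genes with transcripts under 1000 bases was 0.0397, 0.044 and 0.0568 in the 3 highest libraries and -0.0292, -0.0409 and -0.0356 in the 3 lowest. Members are short (median coding transcript 711.5 bases, against 2180 over all genes tested). HT fluoxetine female 4 also held the highest striatal sum (49494) and WT vehicle male 3 the highest sum of 12 oligodendrocyte markers (153159). The part of length or tissue make-up in these shifts was not tested, and in bulk RNA fewer cells of a type and less RNA per cell cannot be told apart.

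**Figure D3:**
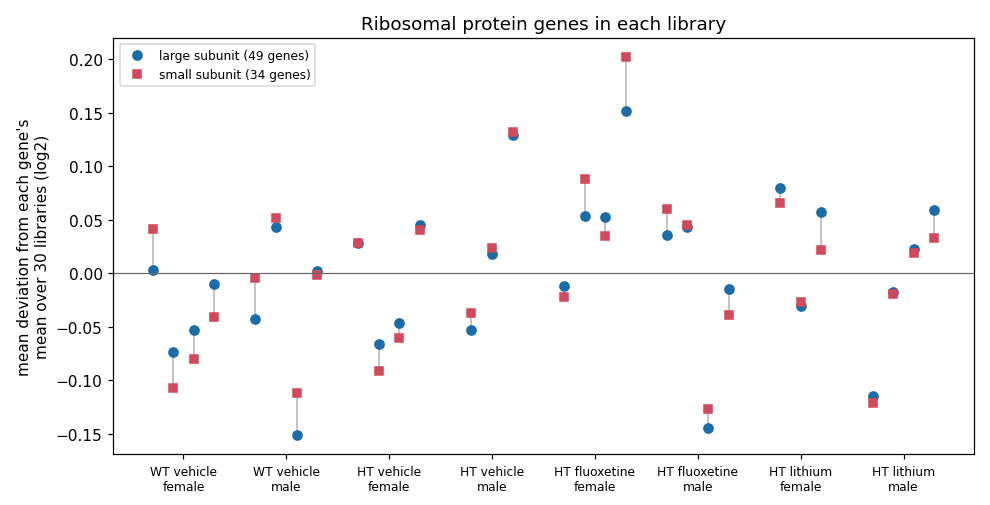
Mean deviation of the large (circles) and small (squares) subunit genes from each gene's own mean over 30 libraries (y axis, log2), 1 joined pair per library, by group (x axis). The symbols of a library move together, and over all members the libraries run from -0.137 (HT fluoxetine male 3) to 0.172 (HT fluoxetine female 4).

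The genotype comparison asked whether libraries labelled HT vehicle differ from WT vehicle. Most members were slightly higher in the libraries labelled HT, but none was called. A call here means an adjusted p under 0.05 over the 16824 genes tested, and each contrast averages the female and the male difference. limma called 0 of 83 members, with 0.731% of all genes called (edgeR and DESeq2 also 0); at an unadjusted p under 0.05 there were 3 members, and 5 with either other tool, against 6.6% of all genes. Of the members 75 had a positive log2 fold change, against 49.3% of all genes, with a median of 0.048 for the large and 0.059 for the small subunit against -0.001 over all genes. No member had libraries that did not overlap between the groups (0.404% of genes higher, 0.0476% lower).

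The summed large subunit count was 156871 ± 5417 in WT vehicle (SD, n = 8) and 161852 ± 8063 in HT vehicle libraries (n = 7). For the small subunit the sums were 102147 ± 3660 and 105677 ± 5785. Both differences in means were smaller than the SD of either group. With array weights 63 members were positive with a median of 0.020, and with length and GC trends removed 71 and 0.040. Without HT vehicle male 3 these were 66 and 0.024, and without WT vehicle male 3 70 and 0.028. Other fits gave larger shifts. Over 16 alternative fits 63 to 79 members were positive, with medians from 0.020 to 0.074. With each library left out in turn 66 to 79 were, with medians from 0.024 to 0.075. The 319 genes with transcripts of up to 500 bases, members left out, had a median of 0.029. The 2652 genes from above 500 to 1000 bases, a range that holds the members' median length of 711.5 bases, had 0.008. The part of transcript length was not tested further.

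Of the members nearest to a call, Rpl35a, a large subunit protein mutated in some cases of Diamond-Blackfan anemia, had 2286, 2033, 2042 and 2287 normalized counts in WT vehicle females and 2244, 2462, 2159 and 2307 in males. In libraries labelled HT vehicle it had 2383, 2271, 2332 and 2513 in females and 2310, 2436 and 2550 in males. The HT-labelled values overlapped the WT values, with HT vehicle female 4 and male 3 above the highest WT library; the log2 difference was 0.11 (SE 0.044, limma adjusted p = 0.494). Rps23, which sits at the decoding centre, ranged from 1845 to 2117 (median 1905) in WT and from 1895 to 2212 (median 2108) in HT vehicle libraries, a log2 difference of 0.11 (SE 0.045, limma adjusted p = 0.527). Its similar row Rps23-ps1 had a mean of 1999 against 2028, so the split of this pair is uncertain too. Rps24 ranged from 4982 to 5798 (median 5554) and from 5542 to 6261 (median 5789), with a log2 difference of 0.11 (SE 0.045, limma adjusted p = 0.604). These 3 are the members with an unadjusted p under 0.05.

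Rps27a, which is made as a fusion with ubiquitin, had medians of 2928 and 3120 in WT and HT vehicle libraries. Rpl17, which lines the exit tunnel, had medians of 4369 and 4701, Rpl30 of 2805 and 2944, and Rpl36 of 1427 and 1480. All of these ranges overlapped, and the unadjusted p-values were 0.0526, 0.0645, 0.0749 and 0.0853 by limma.

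**Figure D4:**
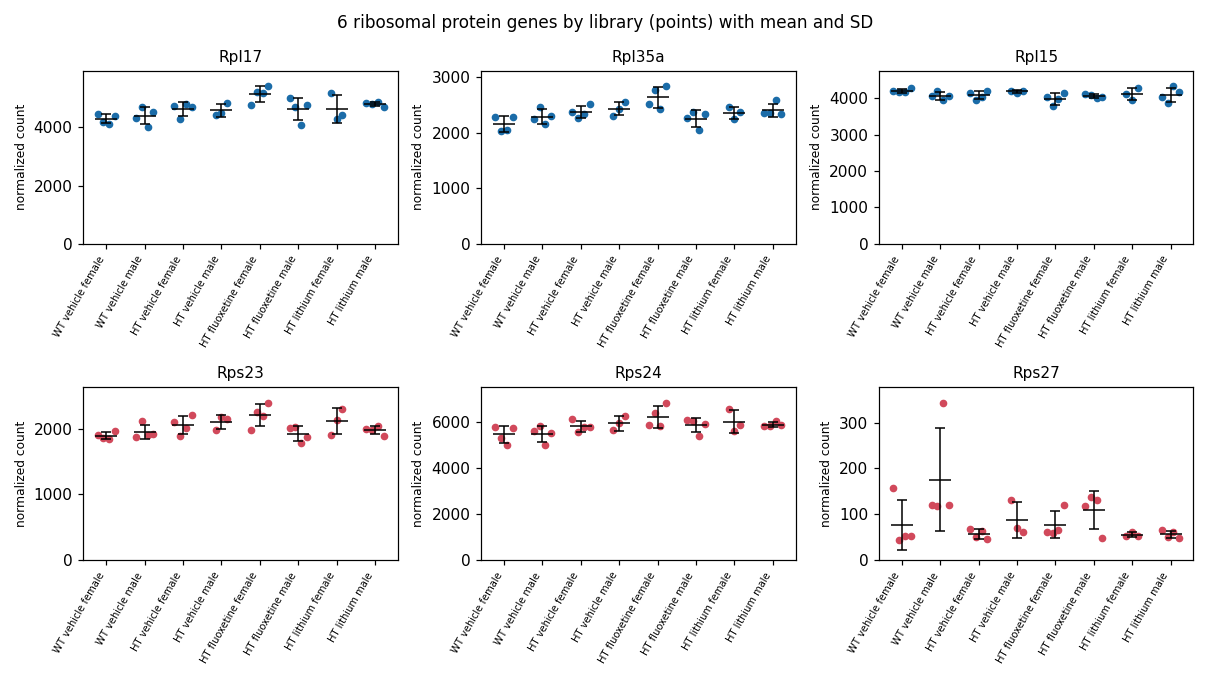
Normalized counts (y axis, from 0) of 6 members in each library (points) by group (x axis), with the mean and SD as bars. With both sexes pooled the 4 conditions overlap for every gene shown, Rpl15 is nearly flat (3775 to 4326), and Rps27 has 1 library at 344.

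Fluoxetine and lithium were each compared with vehicle in libraries labelled HT; both share the HT vehicle libraries with the genotype comparison, so their values are given side by side only. With fluoxetine limma called 0 of 83 members, with 0.0357% of all genes called. None had an unadjusted p under 0.05 with limma, edgeR or DESeq2, against 2.63% of genes with limma. The medians were 0.006 for the large and 0.011 for the small subunit, and 51 members were positive against 48.7% of all genes. The large subunit sum was 163362 ± 10100 (n = 8) with fluoxetine. This direction was not stable. With array weights 70 members were positive, with a median of 0.042, and without HT vehicle male 3 69 were, with 0.037. Without HT vehicle male 1 only 28 were positive (-0.014), without HT fluoxetine female 4 31 were (-0.012), and the median also fell below 0 without HT vehicle female 2 or 3 or HT fluoxetine male 1 or 2 (39 to 41 positive).

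Rpl17 had the smallest p of the large subunit for fluoxetine. Its counts were 4773, 5232, 5196 and 5413 in HT fluoxetine females and 4999, 4696, 4097 and 4775 in males, against 4752, 4303, 4815 and 4701 in HT vehicle females and 4428, 4502 and 4851 in males. The females given fluoxetine were high, the male values spanned those of vehicle, and the log2 difference was 0.08 (SE 0.045, unadjusted p = 0.0844 by limma, adjusted p = 1). Rpl41, the smallest ribosomal protein, had a median of 4879 with vehicle and 5265 with fluoxetine, and Rpl10a 1541 and 1592. Rpl15, the steadiest member, had 4154 and 4032. In the small subunit the smallest p-values were those of Rps10 (medians 2396 and 2546), Rps27 (64 and 92), Rps25 (2400 and 2446) and Rps7 (3623 and 3528), all with adjusted p = 1 by limma.

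For lithium limma called 0 of 83 members, with 0.0892% of all genes called (edgeR and DESeq2 also 0). One member had an unadjusted p under 0.05 with each of the 3 tools, and 5.72% of all genes did with limma. The medians were -0.007 for the large and -0.005 for the small subunit, with 33 members positive against 47.8% of all genes. This direction depended on the scaling: with equal library totals 53 members were positive with a median of 0.013, while the median of all genes moved from -0.004 to 0.015, and with array weights 51 were positive with a median of 0.011. The median was also above 0 without HT vehicle male 3 (63 positive, 0.022), HT lithium male 1 (52, 0.012), HT lithium female 2 (46, 0.0067) or HT vehicle female 4 (43, 0.0019), and it was lowest without HT vehicle male 1 (25, -0.031). The large subunit sum was 160908 ± 6631 (n = 7) with lithium.

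The member below 0.05 was Rpl35, a protein near the tunnel exit. It had 1964, 1747 and 1800 normalized counts in HT lithium females and 1788, 1718, 1860 and 1863 in males, against 1730, 1745, 1785 and 1718 in HT vehicle females and 1658, 1766 and 1671 in males. The lithium values lay mostly above those of vehicle with overlap, and the log2 difference was 0.08 (SE 0.035, unadjusted p = 0.0283, adjusted p = 0.858 by limma). Rpl14 had medians of 2341 with vehicle and 2520 with lithium, Rpl22 of 1890 and 1996, and Rpl13a of 4747 and 4946. In the small subunit Rpsa, also known as a laminin receptor, had 8933 and 8807, Rps2 6569 and 6305, Rps27a 3120 and 3169, and Rps27 64 and 53. None of these passed the test, and all ranges overlapped.

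The sexes were compared within each drug. In females 76 of 83 members were positive with fluoxetine (median 0.077) and in males 14 (median -0.061), against 50.3% and 49.5% of all genes. With lithium 72 were positive in females (median 0.043) and 18 in males (-0.063), against 50.4% and 49.2%. limma called 0 members in each (0.0%, 0.0178%, 0.0% and 0.0773% of all genes called). Before adjustment 6, 5, 1 and 6 members were below 0.05, against 3.85%, 4.07%, 3.55% and 13.8% of all genes. Of the difference between the sexes it called none for either drug, with smallest adjusted p-values of 0.779 and 0.471. For that difference 12 members for fluoxetine and 8 for lithium had an unadjusted p under 0.05 (5.96% and 10% of all genes), and 79 and 72 were positive (50.2% and 50.1% of all genes). edgeR and DESeq2 were not run on single-sex contrasts.

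The male medians rested on 1 vehicle library. Without HT vehicle male 3, 41 members were positive with fluoxetine in males (median -0.001) and 44 with lithium (0.002). Without HT fluoxetine male 3 the fluoxetine male count was 32, and without HT lithium male 1 the lithium male count was 29. In females the fluoxetine median was 0.045 with 73 positive without HT fluoxetine female 4, and the lithium median 0.021 with 57 positive without HT vehicle female 2. By genotype label, 60 members were positive in females (median 0.028) and 79 in males (0.073), against 50.1% and 48.9% of all genes. limma called 0 in either sex (0.256% and 0.226% of all genes called; unadjusted p under 0.05 for 2 and 3 members, 5.17% and 4.32% of all genes). The difference between the sexes by genotype had 22 positive members (49% of all genes), 0 called (0.0%) and 0 with an unadjusted p under 0.05 (2.05%). Without HT vehicle male 3 the male count was 57 (0.016), and without WT vehicle male 3 it was 65 (0.034). Without HT vehicle female 4 the female count was 43 (0.002). The 319 genes of up to 500 bases, members left out, had medians of 0.041 with fluoxetine in females and -0.028 in males. For the 2652 genes from above 500 to 1000 bases these were 0.018 and -0.014.

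**Figure D5:**
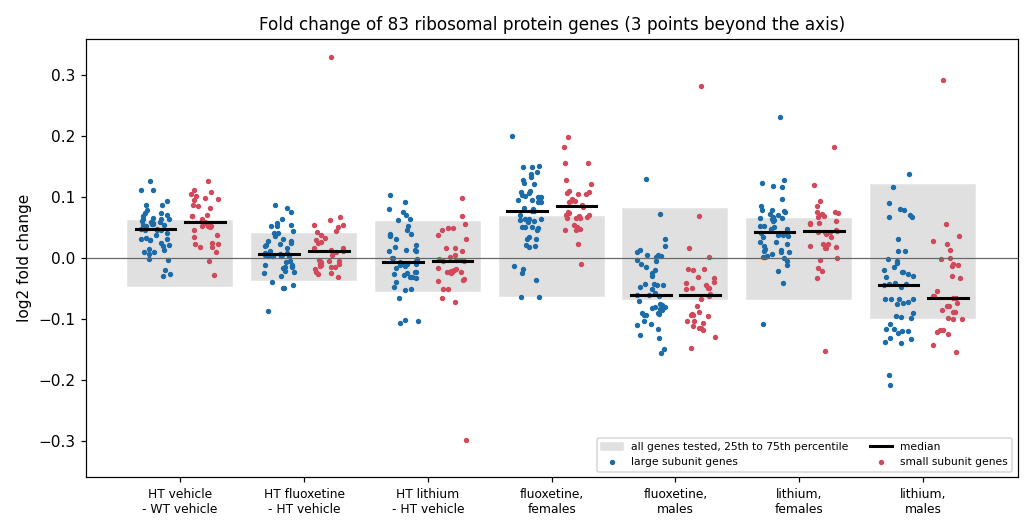
Log2 fold changes (y axis) of the 83 members by subunit (points, with the median as a black bar) for 7 comparisons (x axis), over the 25th to 75th percentile of all 16824 genes (grey); 3 points lie beyond the axis. The medians are 0.077 and -0.061 for fluoxetine in females and males, and 0.006 over both sexes.

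Drug-treated libraries labelled HT were also compared with those labelled WT vehicle, which these comparisons share with the genotype comparison. For HT fluoxetine against WT vehicle limma called 1 of 83 members, with 1.49% of all genes called (1.24% as higher), 14 had an unadjusted p under 0.05 (12.1% of all genes), and 75 were positive (49.6% of all genes; median 0.062, and 0.040 without HT fluoxetine female 4). The member was Rpl17, at 4449, 4204, 4121 and 4398 normalized counts in WT vehicle females and 4340, 4715, 4033 and 4520 in WT vehicle males. The HT fluoxetine females, at 4773 to 5413, lay above all WT vehicle libraries, and the males, at 4097 to 4999, overlapped them. Rpl17 was higher in the libraries labelled HT fluoxetine by 0.17 on the log2 scale (SE 0.044, limma adjusted p = 0.0442), a fold of 1.12. The call was lost when any of 13 of the 16 libraries was left out (largest adjusted p = 0.118 by limma), that is, all but WT vehicle male 2, HT fluoxetine female 1 and HT fluoxetine male 3. It was also lost in a fit on only the groups compared (limma adjusted p = 0.0786) and with a mean of at least 50 (0.0512). Rps24 (0.14, limma adjusted p = 0.11) and Rpl35a (0.13, limma adjusted p = 0.145) followed.

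For HT lithium against WT vehicle limma called 0 of 83 members, with 1.97% of all genes called; 11 members were below 0.05 before adjustment, against 17.7% of all genes. edgeR called 0 and DESeq2 called Rps27 as lower. Of the members 73 were positive (49.5% of all genes; median 0.047), but 56 without WT vehicle male 3 (0.030) and 63 with array weights (0.031). Rps27a (0.13, limma adjusted p = 0.0931), Rpl14 (0.16, 0.105) and Rpl13a (0.13, 0.107) had the smallest p-values, and these 3 were called under equal library totals, where 80 members were positive (median 0.086). Rps27 was at 47 to 64 in HT lithium libraries and 42 to 344 in WT vehicle libraries, the pair of rows with the uncertain split described above. Lithium against fluoxetine had 0 members called and 0.0% of all genes (edgeR and DESeq2 0 members; 2 members with an unadjusted p under 0.05, against 6.86% of all genes), with 29 positive (49.4% of all genes; median -0.015), 43 under equal totals (0.0013) and 44 without HT fluoxetine female 4 (0.0018). Female against male had 0 called, with 0.214% of all genes called; 6 members had an unadjusted p under 0.05 (edgeR 6, DESeq2 7, none called by either), against 8.05% of all genes, and 68 were positive (50.3% of all genes; median 0.025). That median was 0.013 to 0.016 without HT vehicle male 1, HT fluoxetine male 3, HT fluoxetine female 4, WT vehicle male 3 or HT lithium male 1 (54 to 61 positive), 0.038 without HT fluoxetine female 1 and 0.042 without HT vehicle male 3.

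Genes that make, regulate or join the ribosome were followed as lists. Rack1, a scaffold on the small subunit that lies outside the symbol rule, was not called by genotype label, at 3791 ± 95.8 in WT and 3939 ± 251 in HT vehicle libraries (log2 difference 0.06, limma adjusted p = 0.947). Over all genes 0.731% were called by genotype and 49.3% were positive, with a median of -0.001. By genotype none of 36 initiation factors was called (8 positive, median -0.017), nor any of 65 ribosome biogenesis factors (27 positive, -0.011), 17 RNA polymerase I genes (11 positive, 0.013), 39 mTOR pathway and TOP regulators (18 positive, -0.004) or 78 mitochondrial ribosomal protein genes (33 positive, -0.013). Among 20 elongation factors and other TOP transcripts 12 were positive (0.008); the smallest p was that of Naca, of the nascent chain complex, at 3483 ± 59.2 in WT and 3656 ± 142 in HT vehicle libraries (log2 difference 0.07, limma adjusted p = 0.645). Among 20 quality control and assembly chaperone genes 6 were positive (-0.014).

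With fluoxetine and lithium these lists again held 0 called genes by limma, where 0.0357% and 0.0892% of all genes were called and 48.7% and 47.8% were positive. For fluoxetine 11 of 36 initiation factors and 38 of 65 biogenesis factors were positive, and the smallest p of the latter was that of Nifk, a nucleolar protein (566.9 ± 25.4 with vehicle and 535.8 ± 24.7 with fluoxetine, limma adjusted p = 1). For lithium 12 of 39 mTOR pathway genes were positive (median -0.015). Ddit4, an inhibitor of mTOR signalling, had the smallest p among them, at 1341 ± 177 with vehicle and 1193 ± 141 with lithium (log2 difference -0.20, SE 0.058, limma adjusted p = 0.534).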

How the data were processed

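Stranded mRNA libraries were made, per the labels' protocols. The authors deposited a signal per gene, read counts divided by a size factor for each library, as the values themselves show: all came out as whole reads within 0.01 after division by the library's step. DESeq2 1.19.11, Salmon 0.11.2, R 3.6.0 and build GRCm38 are named in the submitters' processing notes, and the sources used here give no annotation, filter or strand handling. All libraries carry the same batch label.

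Symbols (18227 of 18240 rows) and coordinates (1-based) are from GENCODE M21. In R 4.3.3, limma 3.58.1 (trend, robust) was fitted to log2(normalized count + 1) for 16824 genes with a mean of at least 10, with 8 group means over 30 libraries (22 residual degrees of freedom) and Benjamini-Hochberg adjustment over all genes; fold changes are on that scale, which understates low genes. edgeR 4.0.16 (quasi-likelihood) and DESeq2 1.42.0 were run on recovered reads, as alternatives, with scaling, filter, block, covariate and leave-one-out fits (effects in the closing section). The scripts were tested on simulated data. Intervals cover counting error only; at these depths no member fell below 42.4 normalized counts. Similar rows were found by shared 31-base words of annotated transcripts.

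Genes named are members called in a sex-averaged comparison and those with the 4 smallest p-values of each subunit for genotype, fluoxetine and lithium. Paralogs, the 2 most and least abundant per kb and the 2 most and least variable per subunit are also named. Of the genes with the smallest p of a pathway list in a comparison, only some are named. Rpl5, Rps15a, Rps6, Rps18 and the copies were chosen after their values were seen. Members and lists were chosen with earlier results of these data known. Pathway lists were not tested as sets, and the result of a further list is not reported here.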

Additional observations from a re-analysis of the deposited data

Results flagged for a closer look

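Within groups of 4 libraries, the gap of 1 library to the next was compared with the group's range by Dixon's test, over 210 groups for 35 measures; 12 passed, and chance flags about 1 in 20 groups. Rps27 stood apart 3 times: 344 normalized counts in WT vehicle male 3 (others 118 to 121), 157 in WT vehicle female 1 (42 to 53) and 121 in HT fluoxetine female 4 (59 to 66). HT fluoxetine male 3, the library with the lowest mean of the members, was low for Rpl36 (1202, others 1497 to 1556), Rps10 (2135, others 2498 to 2550) and Rps15 (4683, others 5017 to 5085). Rpl35a was at 2585 in HT lithium male 3 (others 2341 to 2353), and Rpl22 at 1812 in HT fluoxetine male 4 (others 1923 to 1943). Rpl4 was at 9354 in HT vehicle female 3 (others 9717 to 9760), and Rps2 at 6737 in HT vehicle female 4 (others 6014 to 6132). Rps3a1 was at 5554 in HT lithium male 4 (others 5203 to 5252). The ratio of large to small subunit sums was 1.51 in WT vehicle male 1 (others 1.54 to 1.55).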

How the results depend on the processing

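The count of members called was 0 in all alternatives for genotype, fluoxetine, lithium, lithium against fluoxetine and sex. For HT fluoxetine against WT vehicle, 1 in the reported fit, it was 0 with a mean of at least 50, with only the groups of the comparison and with the replicate block, 3 with array weights (Rpl17, Rps24 and Rpl35a), and 0 to 2 with each library left out (2 without HT fluoxetine male 3, which added Rpl41). For HT lithium against WT vehicle, 0 in the reported fit, it was 1 with DESeq2 (Rps27, adjusted p = 0.0162), 3 with equal totals and with equal totals without the members, 1 with striatal and bulb covariates, and 0 to 1 with each library left out. The replicate block changed no other call of a member; deviations of same-numbered libraries correlated at -0.43 to 0.446, so the numbers were not taken as pairs. These use the replicate numbers of the titles; the HT lithium females are numbered 1, 3 and 4 in their library names, so their numbers may not match those of other groups. With similar rows summed, an alternative chosen after seeing the data, Rps27 reversed to 0.055 by genotype and 0.038 for lithium. Pyrimidine starts went from 22.2% to 47.6% within 5 bases. The median log2 fold change of the members ran from 0.020 to 0.075 for genotype, from -0.014 to 0.042 for fluoxetine and from -0.031 to 0.022 for lithium over all settings, changing sign for both drugs; the replicate block gave 41 positive members for fluoxetine (51 reported). Counts over all genes ranged from 68 to 241 for genotype (123 reported), 3 to 17 for fluoxetine (6), 5 to 18 for lithium (15), 0 to 14 for lithium against fluoxetine (0), 165 to 504 for HT fluoxetine against WT (251), 196 to 600 for HT lithium against WT (332) and 28 to 128 for sex (36).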

Other observations

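Between the sexes, averaged over the 4 conditions, 75 of 78 mitochondrial ribosomal protein genes were higher in females (median log2 difference 0.045, 0 called), beside 50.3% of all genes. The conditions differed. In HT vehicle libraries the mean log2 deviation of these genes was -2.13e-05 in females and 0.00769 in males. It was 0.031 and -0.016 in WT vehicle, 0.031 and -0.025 in HT fluoxetine, and 0.040 and -0.056 in HT lithium libraries. Ddit4, an inhibitor of mTOR signalling, was lower in females by a log2 difference of -0.27 (SE 0.04, limma adjusted p = 0.000375), and Eif2s3x, an X-linked initiation factor subunit known to escape X inactivation, was higher by 0.57 (limma adjusted p = 5.22e-17). In HT lithium against WT vehicle libraries Rps6ka2, a ribosomal S6 kinase, was at 2300 ± 184 against 2586 ± 76.5 (log2 difference -0.17, limma adjusted p = 0.0389). In HT fluoxetine against WT vehicle libraries Mrpl33, of the mitochondrial large subunit, was at 421.7 ± 18.2 against 373.3 ± 40.2 (0.18, limma adjusted p = 0.0442).

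Some copies varied far more than their parents. Rpl14-ps1 ranged from 22.6 to 1071 normalized counts over 30 libraries and Rps13-ps1 from 18.8 to 688, while Rpl14 ranged 1.35-fold and Rps13 1.58-fold. Rpl15-ps3 was listed at 0 in 26 libraries and at 290 to 421 in WT vehicle male 4, HT vehicle female 1, HT fluoxetine female 2 and HT lithium female 1.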
